A study of Rattus norvegicus with 18 samples.

Results

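Transcripts of 8 genes of the choroid plexus epithelium, Ttr, Kl, Folr1, Clic6, Kcnj13, Otx2, Slc4a5 and Aqp1, were followed in cortex of the rat after subarachnoid hemorrhage (SAH). They were taken by gene symbol from a count table of 30735 genes, and all 8 were found. The genes had been picked with their levels in these libraries known, so their values are a description. Where the fit over all genes called some of them, the count is given with nothing read from it. In 18 libraries of adult Sprague Dawley rats, 6 came from sham rats, 6 from rats sampled 1 day after SAH (SAH 1d) and 6 from rats sampled 7 days after it (SAH 7d), with 1 library per rat. SAH was made by pushing a filament through the wall of an artery at the base of the brain, and sham rats had the same operation without the puncture. Neither the time of sampling of the sham rats nor the sex of the animals is stated. According to the methods, the whole cortex of the operated side was taken and rinsed, whereas the labels name both sides and call the animals mice, although the organism is given as rat and the genes carry rat identifiers. The tissue was bulk cortex, so that fewer cells of a type and less RNA per cell cannot be told apart.

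The choroid plexus is a fold of vessels and stroma under a single layer of epithelium that hangs into the ventricles and makes cerebrospinal fluid. It lies next to the cortex and hippocampus but is no part of the cortex, and its transcripts in a cortical sample can show whether a piece of it was taken along. Its cells secrete carrier proteins, move sodium, chloride, bicarbonate, potassium and water, and are kept in their identity by homeobox factors.

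Total counts ran from 27.3 to 38.3 in units of 1e+06 per library. The cortical neuron genes were high in every library, with Slc17a7, the vesicular glutamate transporter of cortical neurons, at 166 to 561 FPKM (fragments per kilobase of transcript and 1e+06 mapped reads). There are 3 libraries that have to be named before the results. SAH 1d-4 and SAH 1d-6 stood apart from the other 16 in the choroid plexus genes, and the fold changes at SAH 1d are therefore given with and without them. SAH 7d-5 stood apart in the summed level of 6 genes of the fibroblasts of the meninges, at 890 FPKM there and at most 107 FPKM in the other libraries. The genes of this sum differed in how far they did so, as given below.

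The promoters of the genes are shown as a description, and whether they bear on the levels was not tested. RefSeq promoter sequences of the GRCr8 assembly were found for 5 of the 8 genes, namely Ttr, Kl, Kcnj13, Slc4a5 and Aqp1, and those of Folr1, Clic6 and Otx2 were not used here. The motif TAATCC, known as the binding motif of OTX proteins and searched on both strands, was in none of the 5 stretches of 250 bases before the start, against 6.34% of all 33469 promoters. The core of that motif without its last base, TAATC, was on either strand in those of Ttr, Kl and Kcnj13 and in 20.5% of all promoters. The match began 93 bases before the start of Kl, 243 bases before that of Kcnj13, and 77 and 12 bases before that of Ttr. The 250 bases before the start are given 5′ to 3′ on the strand of the gene for Kl at chr12:5325753-5326002 (plus strand) and Kcnj13 at chr9:95518987-95519236 (minus strand), with the core in capitals. Those of Slc4a5 at chr4:117283044-117283293 (plus strand) and Aqp1 at chr4:85812534-85812783 (plus strand) are given too and hold no such match. A match is a description of letters and not a binding site.
Kl: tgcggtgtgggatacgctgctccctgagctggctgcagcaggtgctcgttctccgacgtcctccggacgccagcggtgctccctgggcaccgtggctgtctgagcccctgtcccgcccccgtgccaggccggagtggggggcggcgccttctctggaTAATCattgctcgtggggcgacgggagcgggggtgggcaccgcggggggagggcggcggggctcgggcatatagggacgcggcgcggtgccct
Kcnj13: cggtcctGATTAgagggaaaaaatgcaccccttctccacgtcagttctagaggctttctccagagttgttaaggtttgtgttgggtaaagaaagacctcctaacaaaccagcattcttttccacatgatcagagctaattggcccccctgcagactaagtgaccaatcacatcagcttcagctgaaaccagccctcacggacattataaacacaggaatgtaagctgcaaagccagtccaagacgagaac
Slc4a5: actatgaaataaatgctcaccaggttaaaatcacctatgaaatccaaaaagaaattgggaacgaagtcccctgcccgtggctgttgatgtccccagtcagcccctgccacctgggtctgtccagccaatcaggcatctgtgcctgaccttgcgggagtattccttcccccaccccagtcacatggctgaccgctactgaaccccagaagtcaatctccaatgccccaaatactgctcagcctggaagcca
Aqp1: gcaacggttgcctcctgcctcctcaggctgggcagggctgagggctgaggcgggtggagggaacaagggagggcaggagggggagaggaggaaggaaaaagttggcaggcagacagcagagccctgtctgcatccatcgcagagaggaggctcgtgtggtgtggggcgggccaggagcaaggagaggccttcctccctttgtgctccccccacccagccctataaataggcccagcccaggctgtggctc

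Ttr encodes transthyretin, the carrier of thyroxine and retinol that the choroid plexus secretes into cerebrospinal fluid. Its level in the sham libraries 1 to 6 was 15.5, 78.8, 5.35, 2.58, 2.13 and 1.52 FPKM. In the SAH 1d libraries 1 to 6 it was 39.8, 15.6, 2.43, 906, 1.60 and 1368 FPKM, and in the SAH 7d libraries 1 to 6 it was 3.31, 19.3, 46.4, 1.49, 0.163 and 1.198 FPKM. SAH 1d-4 and SAH 1d-6 lay 11.5-fold and 17.4-fold above the highest of the other 16 libraries, which was sham-2. Ranked by FPKM among all genes of its library, Ttr was number 19 in SAH 1d-6 and number 32 in SAH 1d-4, and number 1000 in sham-2. The other 4 SAH 1d libraries lay within the range of the sham libraries. The lowest level of all was that of SAH 7d-5, with 4 counts of Ttr.

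**Figure D1:**
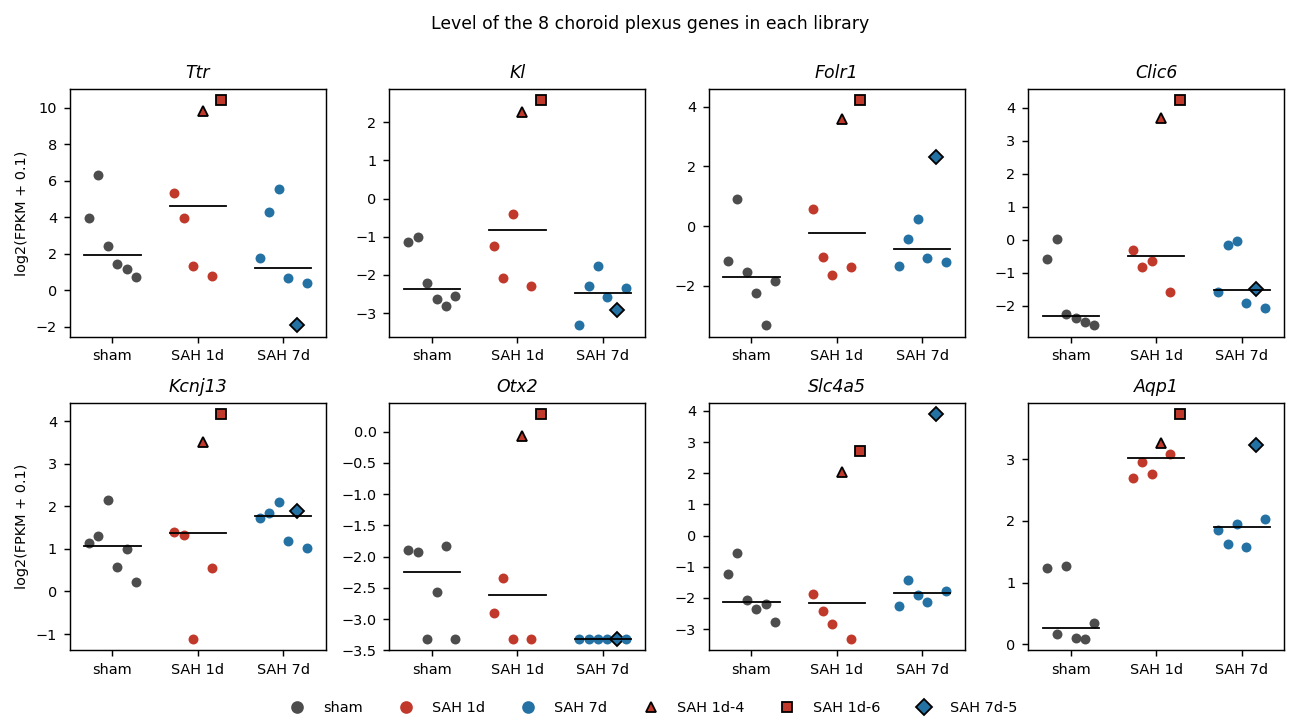
Level of each of the 8 genes in each of the 18 libraries, as log2(FPKM + 0.1), with libraries placed by group and in the order of their number. Lines are medians of the plotted values, and SAH 1d-4 (triangle) and SAH 1d-6 (square) lie above all other libraries in every panel but that of Slc4a5, where SAH 7d-5 (diamond) is highest at 14.8 FPKM.

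Folr1, the folate receptor that carries folate across the epithelium, had the same pair of libraries at the top. It was at 11.9 FPKM in SAH 1d-4 and 18.5 FPKM in SAH 1d-6. The sham libraries ran from 0 to 1.77 FPKM with a median of 0.210 FPKM, and the other 4 SAH 1d libraries from 0.218 to 1.39 FPKM. At SAH 7d the level was 0.296 to 1.09 FPKM in 5 libraries and 4.93 FPKM in SAH 7d-5. Hence the library with the lowest Ttr had more Folr1 than any other outside the pair.

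Kl encodes klotho, a coreceptor for a hormone of phosphate balance that is also shed into cerebrospinal fluid. It was at 4.70 FPKM in SAH 1d-4 and 5.85 FPKM in SAH 1d-6, 7.12-fold and 8.86-fold above SAH 1d-3, the next library. Sham libraries had 0.0417 to 0.399 FPKM, the other SAH 1d libraries 0.105 to 0.660 FPKM and SAH 7d libraries 0 to 0.191 FPKM. Apart from the 2 high libraries the groups overlapped.

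Otx2, the homeobox factor that sets up and maintains the choroid plexus epithelium, was the scarcest of the 8. It had 21 counts (0.851 FPKM) in SAH 1d-4 and 31 counts (1.11 FPKM) in SAH 1d-6. The sham libraries had 0 to 6 counts, and the other 4 SAH 1d libraries had 0 to 3 counts. No count fell on Otx2 in any SAH 7d library. With a floor of 3 counts over the group, the pooled level was at least 6.36-fold lower than that of the 19 sham counts. This bound is for pooled reads and leaves out the spread between rats, and sham-3 and sham-6 had 0 counts too. Otx2 did not pass the filter on low counts and had no part in the fit that gave the other fold changes.

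Clic6, a member of the chloride intracellular channel family that is abundant in this epithelium, separated the 2 libraries most clearly. It was at 12.9 FPKM in SAH 1d-4 and 18.5 FPKM in SAH 1d-6, 14.1-fold and 20.3-fold above sham-2. The other 16 libraries lay between 0.0668 and 0.913 FPKM, and their groups overlapped.

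Kcnj13 encodes an inwardly rectifying potassium channel of the apical membrane. Its level was 11.2 FPKM in SAH 1d-4 and 17.8 FPKM in SAH 1d-6, 2.61-fold and 4.14-fold above the next library, sham-3. Outside these it was never at 0, with 1.06 to 4.30 FPKM in the sham libraries, 0.361 to 2.54 FPKM in the other SAH 1d libraries and 1.93 to 4.23 FPKM in the SAH 7d libraries. In the 16 other libraries Kcnj13 thus had a higher floor than Clic6 or Folr1 on the FPKM scale. SAH 1d-3 was its lowest library.

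Slc4a5 encodes a cotransporter of sodium and bicarbonate of the apical membrane. It reached 4.01 FPKM in SAH 1d-4 and 6.41 FPKM in SAH 1d-6, but the highest level was that of SAH 7d-5, at 14.8 FPKM and 1734 counts. The other 15 libraries lay at or below 0.579 FPKM, and SAH 1d-5 had no count. Slc4a5 was the only one of the 8 whose highest library was outside SAH 1d.

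Aqp1, the water channel of the apical membrane, behaved differently from the other 7. The sham libraries had 0.960 to 2.30 FPKM with a median of 1.10 FPKM. All 6 SAH 1d libraries lay above them, at 6.34, 7.63, 6.65, 9.52, 8.36 and 13.1 FPKM for libraries 1 to 6. At SAH 7d the level was 2.89 to 3.97 FPKM in 5 libraries and 9.31 FPKM in SAH 7d-5, so that the SAH 7d libraries did not overlap with the sham libraries either. Of all tested genes, 7.89% were higher without overlap at SAH 1d than in sham and 0.797% at SAH 7d. Aqp1 was the only one of the 8 in each of these counts. Aqp1 is known from other cells too, such as red cells. The summed level of 5 red cell genes was 20.7 to 176 FPKM in sham, 88.0 to 311 FPKM at SAH 1d and up to 105 FPKM at SAH 7d, with the lowest value in SAH 7d-5, in which Aqp1 was highest of its group. The part of red cells in the SAH 1d levels was not tested.

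Over the 8 genes together, SAH 1d-4 held 0.0788% and SAH 1d-6 0.118% of all counts of the library, against 0.000663% to 0.00890% in the other 16. By counts per 1e+06 (CPM), these 2 libraries were the highest for 6 of the 8 genes, the exceptions being Slc4a5 and Aqp1, for which SAH 7d-5 was the highest or second highest. By the same count the pair was on top for 207 of 18444 tested genes (1.12%). Next in mean log2 CPM came sham-2, a library of the control group.

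SAH 1d-6 exceeded SAH 1d-4 in all 8 genes. The ratio was 1.24 for Kl, 1.31 for Otx2, 1.38 for Aqp1, 1.44 for Clic6, 1.51 for Ttr, 1.56 for Folr1, 1.59 for Kcnj13 and 1.60 for Slc4a5, with a median of 1.47. The median ratio over the 18233 tested genes with a level in both was 1.03, with 5% of genes below 0.625 and 5% above 1.89. Over 30 other choroid plexus genes, described below, the ratio ran more widely, from 0.574 to 2.08 with a median of 1.30. Ttr was 70.3-fold and 73.8-fold above Clic6 in SAH 1d-4 and SAH 1d-6 on the FPKM scale. In the other libraries this ratio varied widely, from 0.629 in SAH 7d-5, 4.47 in SAH 1d-3 and 6.90 in SAH 1d-5 to 56.7 in SAH 1d-1 and 86.3 in sham-2.

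**Figure D2:**
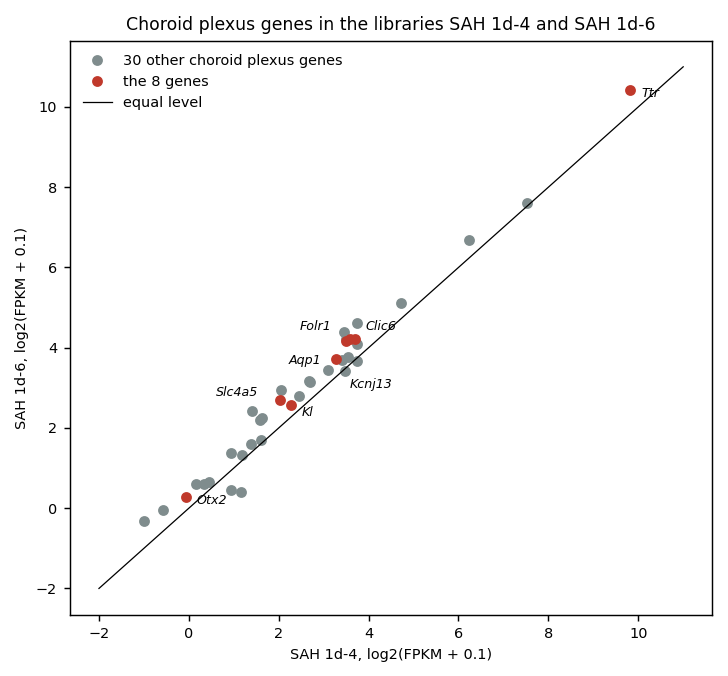
Level of the 8 genes (red) and of 30 other choroid plexus genes (grey) in SAH 1d-6 (vertical) against SAH 1d-4 (horizontal), both as log2(FPKM + 0.1). All 8 genes lie above the line of equal level, with ratios of 1.24 to 1.60.

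SAH 7d-5 had another set of proportions. Slc4a5 (14.8 FPKM) was above Folr1 (4.93 FPKM) there, whereas it was 0.338, 0.347 and 0.327 times the level of Folr1 in SAH 1d-4, SAH 1d-6 and sham-2. In the remaining libraries with counts of Folr1 this ratio varied widely, from 0 in SAH 1d-5 to 0.942 in sham-1. In SAH 7d-5, Slc4a5, Folr1 and Aqp1 were the highest of the SAH 7d group and Ttr was the lowest. Lum, Dcn and Col1a1, genes of collagen fibres and the proteoglycans on them, were at 192, 127 and 144 FPKM in SAH 7d-5 and at most 12.9, 55.2 and 13.1 FPKM elsewhere, and Col3a1, a fibrillar collagen, was at 368 FPKM against at most 25.7 FPKM. Of the same list, Aldh1a2 was at 48.6 FPKM against at most 30.6 FPKM elsewhere. Slc6a13 hardly differed, at 11.11 FPKM against at most 11.06 FPKM. Slc17a7 was at its lowest, 166 FPKM. The part of these other cells in the levels of Slc4a5, Folr1 and Aqp1 was not tested.

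**Figure D3:**
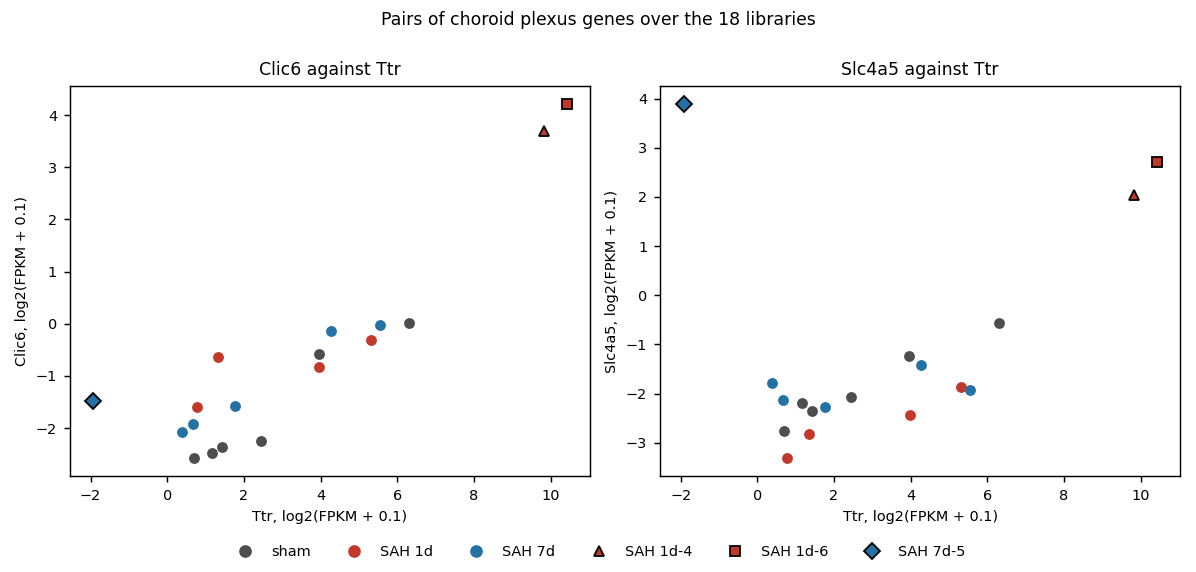
Clic6 (left) and Slc4a5 (right) against Ttr in the 18 libraries, as log2(FPKM + 0.1) on both axes. SAH 1d-4 and SAH 1d-6 lie at the upper right in both panels, and SAH 7d-5 has the lowest Ttr (0.163 FPKM) with the highest Slc4a5 (14.8 FPKM).

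The genes also kept some order outside the pair of high libraries. Over the other 16 libraries the Spearman correlation of log2 CPM was 0.70 between Ttr and Clic6. The value was 0.76 between Folr1 and Clic6, and 0.76 between Folr1 and Slc4a5. It was 0.64 between Ttr and Kl and 0.64 between Folr1 and Kcnj13. For Aqp1 the value lay at −0.23 with Ttr, −0.42 with Otx2 and 0.37 with Folr1. The mean of the 28 pairs was 0.306. These correlations are given as a description of the libraries. The batch in which each library was prepared is unknown, and its part in these values was not tested.

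The genes with the profile most like the mean of the 7 filtered genes were sought among 14027 other genes with a symbol. The 8 nearest by Spearman correlation were Mfrp (0.897 over 18 libraries and 0.853 over the 16), Cldn2 (0.891 and 0.844), Lman2l (0.837 and 0.768), Tekt1 (0.829 and 0.791), Hydin (0.822 and 0.747), Phf2 (0.816 and 0.812), Sgms1 (0.800 and 0.815) and Igflr1 (0.789 and 0.753). Mfrp, a membrane protein with a frizzled-related domain, and Cldn2, a claudin that makes tight junctions leaky to cations, are on the list of choroid plexus genes. They were at 13.3 and 6.30 FPKM in SAH 1d-4 and at 16.9 and 8.92 FPKM in SAH 1d-6, against at most 0.988 and 0.466 FPKM in the other libraries. Tekt1 and Hydin encode parts of motile cilia, which the ependyma that lines the ventricles carries. They were at 3.12 and 0.812 FPKM in SAH 1d-4, 4.45 and 0.907 FPKM in SAH 1d-6, and up to 3.67 and 0.684 FPKM in the rest. Lman2l was at 26.2 and 28.3 FPKM in the pair and up to 25.6 FPKM elsewhere, Sgms1 at 22.2 and 23.3 FPKM and up to 23.2 FPKM, Phf2 at 9.05 and 8.49 FPKM and up to 10.8 FPKM, and Igflr1 at 0.807 and 0.646 FPKM and up to 0.878 FPKM. Of the 8, Mfrp, Cldn2, Lman2l and Hydin had both libraries of the pair above the rest. The list depends on the measure, since by Pearson correlation 3 of the 8 nearest genes were the same (Mfrp, Cldn2 and Lman2l) and 4 in place of 2 were on the list of choroid plexus genes.

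In the comparison of SAH 1d with sham, which asks what changes in the cortex within a day of bleeding, all 8 genes had a higher level at SAH 1d by edgeR's estimate. The log2 fold change was 4.35 (SE 1.61) for Ttr, 4.03 (SE 1.18) for Clic6, 3.38 (SE 1.18) for Folr1, 3.35 (SE 1.02) for Kl, 2.80 (SE 1.24) for Slc4a5, 2.43 (SE 0.29) for Aqp1 and 1.31 (SE 0.72) for Kcnj13, with 6 libraries in each group. For Otx2 a fit without the filter gave 1.49 (SE 1.14). The median of the 8 was 3.07, and that of all 18444 tested genes was 0.01. The error of Aqp1 was the smallest, and its groups alone did not overlap. At an adjusted p under 0.05 with a 2-fold change, Aqp1, Clic6 and Kl were counted among the differentially expressed genes (DEGs), 3 of the 7 that passed the filter, beside 6.64% of all tested genes; the genes were chosen on this contrast, so nothing is read from that count. It was 1 when sham-3, sham-4, sham-5, sham-6 or SAH 1d-6 was left out, and 2 to 5 when another library was. By DESeq2 the count was 5, with Ttr and Folr1 added, beside 6.87% of all genes.

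Without SAH 1d-4 and SAH 1d-6, 4 SAH 1d libraries remained. The estimates of all 8 genes came out lower, 4 of them below 0, and that of Aqp1 changed least. The log2 fold change became −0.36 (SE 1.18) for Ttr, 0.56 (SE 0.73) for Clic6, 0.27 (SE 0.92) for Folr1, 0.72 (SE 0.72) for Kl, −1.61 (SE 0.85) for Slc4a5, −0.51 (SE 0.50) for Kcnj13 and −1.65 (SE 1.33) for Otx2. That of Aqp1 was 2.19 (SE 0.29). The median of the 8 was −0.048 (log2), and Aqp1 was the only DEG among them, beside 6.66% of all tested genes. Over all genes the count of DEGs was nearly the same, 1229 in place of 1224, and 1023 were shared.

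**Figure D4:**
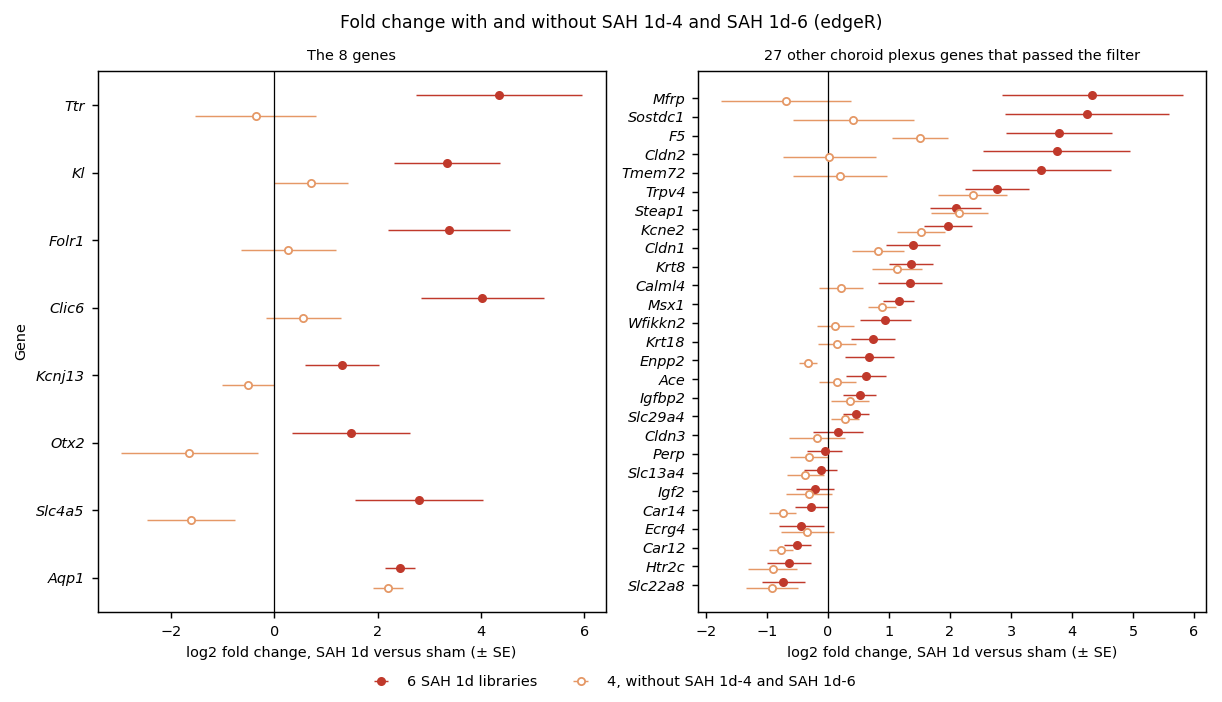
Log2 fold change of SAH 1d versus sham (edgeR, bars ± SE) for the 8 genes (left) and 27 other choroid plexus genes that passed the filter (right), with all 6 SAH 1d libraries (filled) and with the 4 that remain without SAH 1d-4 and SAH 1d-6 (open). Ttr goes from 4.35 to −0.36, while Aqp1 stays at 2.43 and 2.19.

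In the comparison of SAH 7d with sham, the log2 fold changes were −0.59 (SE 1.22) for Ttr, 1.46 (SE 0.93) for Folr1, −1.12 (SE 0.76) for Kl, 0.40 (SE 0.73) for Clic6, 0.45 (SE 0.32) for Kcnj13, 3.45 (SE 1.35) for Slc4a5 and 1.54 (SE 0.36) for Aqp1. Without SAH 7d-5 the value of Slc4a5 turned to −0.35 (SE 0.54), that of Folr1 was 0.35 (SE 0.77) and that of Aqp1 was 1.19 (SE 0.27). By edgeR none of the 7 was a DEG, beside 0% of all tested genes. At an unadjusted p under 0.05 there were 2 of the 7 and 2842 of all genes, and by DESeq2 there was 1, Aqp1, beside 2.01% of all genes.

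In the comparison of SAH 7d with SAH 1d, which asks what changes back within a week, 7 of the 8 genes had a lower estimate at SAH 7d. The log2 fold change was −4.95 (SE 1.77) for Ttr, −4.47 (SE 1.13) for Kl, −3.63 (SE 1.13) for Clic6, −1.91 (SE 1.12) for Folr1, −0.89 (SE 0.30) for Aqp1, −0.86 (SE 0.70) for Kcnj13 and 0.66 (SE 1.57) for Slc4a5. In counts pooled over the group, Otx2 was at least 18.8-fold lower, with 56 counts over the SAH 1d libraries and none over those of SAH 7d. Most were those of SAH 1d-4 (21) and SAH 1d-6 (31), and against the 4 counts of the other SAH 1d libraries the bound was 1.95-fold. Without SAH 1d-4 and SAH 1d-6 the value was −0.23 (SE 1.31) for Ttr, −1.83 (SE 0.78) for Kl, −0.16 (SE 0.58) for Clic6, −0.64 (SE 0.32) for Aqp1, 1.20 (SE 0.89) for Folr1, 0.97 (SE 0.45) for Kcnj13 and 5.07 (SE 1.93) for Slc4a5. Without SAH 7d-5 that of Slc4a5 turned to −3.18 (SE 1.34), and those of Folr1 and Aqp1 were −3.04 (SE 1.12) and −1.26 (SE 0.19). By edgeR none of the 7 was a DEG, beside 0.694% of all tested genes. At an unadjusted p under 0.05 there were 4 of the 7 and 2713 of all 18444 tested genes. DESeq2 gave 3 DEGs (Ttr, Kl and Clic6), beside 2.1% of all genes. Without SAH 7d-5, edgeR gave 2 (Aqp1 and Kl), beside 2.46%, and without SAH 1d-4 and SAH 1d-6 it gave 0, beside 0.244%. Again nothing is read from these counts. This comparison shares its SAH 1d libraries with that of SAH 1d and sham.

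Another 30 choroid plexus genes were taken from a list of 5 roles, and 27 passed the filter. The list was chosen with earlier results of these data known, so its counts are given as a description. At SAH 1d, 11 were higher than in sham and 0 were lower at an adjusted p under 0.05 (edgeR, Benjamini-Hochberg over all genes), with 14 of the 27 at an unadjusted p under 0.05. Of all tested genes, 14.9% were higher and 10.5% lower at an adjusted p under 0.05. At an unadjusted p under 0.05 there were 7148 of all 18444 tested genes. The median log2 fold change of the 27 was 0.74, and 0.14 without SAH 1d-4 and SAH 1d-6. SAH 1d-4 and SAH 1d-6 were the 2 highest libraries for 14 of the 30, beside 1.12% of all tested genes. The part of the choroid plexus tissue in these differences was not tested.

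Of the 6 genes of junctions and keratins, Cldn2, Cldn1 and Krt8 rose, by 3.75 (SE 1.20), 1.40 (SE 0.44) and 1.36 (SE 0.36) on the log2 scale, with adjusted p of 0.0359, 0.0345 and 0.0165. Claudins seal the spaces between the epithelial cells, and Krt8 is a keratin of simple epithelia. Without the pair of libraries none of the 6 passed, with Cldn2 at 0.02 (SE 0.77), Cldn1 at 0.82 (SE 0.43, adjusted p = 0.197) and Krt8 at 1.13 (SE 0.41, adjusted p = 0.0725). Perp, a desmosomal protein and the highest of this role by mean FPKM, had a log2 fold change of −0.06 (SE 0.28), and of −0.31 (SE 0.31) without the pair.

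Of the 4 tested receptors and membrane proteins, Mfrp and Tmem72 rose, by 4.33 (SE 1.49, adjusted p = 0.0477) and 3.50 (SE 1.13, adjusted p = 0.0379). Without the pair their values were −0.69 (SE 1.06) and 0.20 (SE 0.77), and none of the 4 passed. Htr2c, a serotonin receptor that is abundant in choroid plexus and also made by neurons, had its highest level in sham-5, at 36.0 FPKM, with 13.3 FPKM in SAH 1d-4 and 24.2 FPKM in SAH 1d-6.

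Among 7 secreted proteins, Sostdc1, an inhibitor of BMP and Wnt signaling, and F5, coagulation factor V, rose by 4.24 (SE 1.35, adjusted p = 0.0351) and 3.78 (SE 0.87, adjusted p = 0.00813). F5 still passed without the pair, at 1.51 (SE 0.47, adjusted p = 0.0413), whereas Sostdc1 was at 0.41 (SE 0.99). F5 was at 5.35 FPKM in SAH 1d-4, 6.79 FPKM in SAH 1d-6 and 6.98 FPKM in SAH 7d-5, and at most 0.948 FPKM in the other SAH 1d libraries. Igfbp2, a binding protein of insulin-like growth factors and the highest of this role, was at 75.3 FPKM in SAH 1d-4, 103 FPKM in SAH 1d-6 and 331 FPKM in SAH 7d-5. Its fold change at SAH 1d was 0.52 (SE 0.28, adjusted p = 0.185), and 0.36 (SE 0.31, adjusted p = 0.43) without the pair.

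Of 8 tested genes of transport, Trpv4, Steap1 and Kcne2 rose, by 2.77 (SE 0.53), 2.09 (SE 0.41) and 1.96 (SE 0.39), with adjusted p of 0.00293, 0.00362 and 0.00375. Trpv4 is a calcium channel that responds to swelling, Steap1 belongs to a family of metalloreductases, and Kcne2 is a subunit of potassium channels. These 3 rose in the absence of the pair too, by 2.37 (SE 0.57, adjusted p = 0.0157), 2.15 (SE 0.47, adjusted p = 0.0106) and 1.52 (SE 0.39, adjusted p = 0.0204). The carbonic anhydrases Car12 and Car14 fell in that fit, by 0.77 (SE 0.19, adjusted p = 0.018) and 0.75 (SE 0.22, adjusted p = 0.0378) on the log2 scale, and had not passed with all libraries. Among the regulators, Msx1, a homeobox factor, rose by 1.16 (SE 0.25, adjusted p = 0.00632) and by 0.88 (SE 0.23, adjusted p = 0.0227) without the pair. In all, 5 of the 27 rose and 2 fell without the pair, beside 13.1% and 7.52% of all tested genes.

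**Figure D5:**
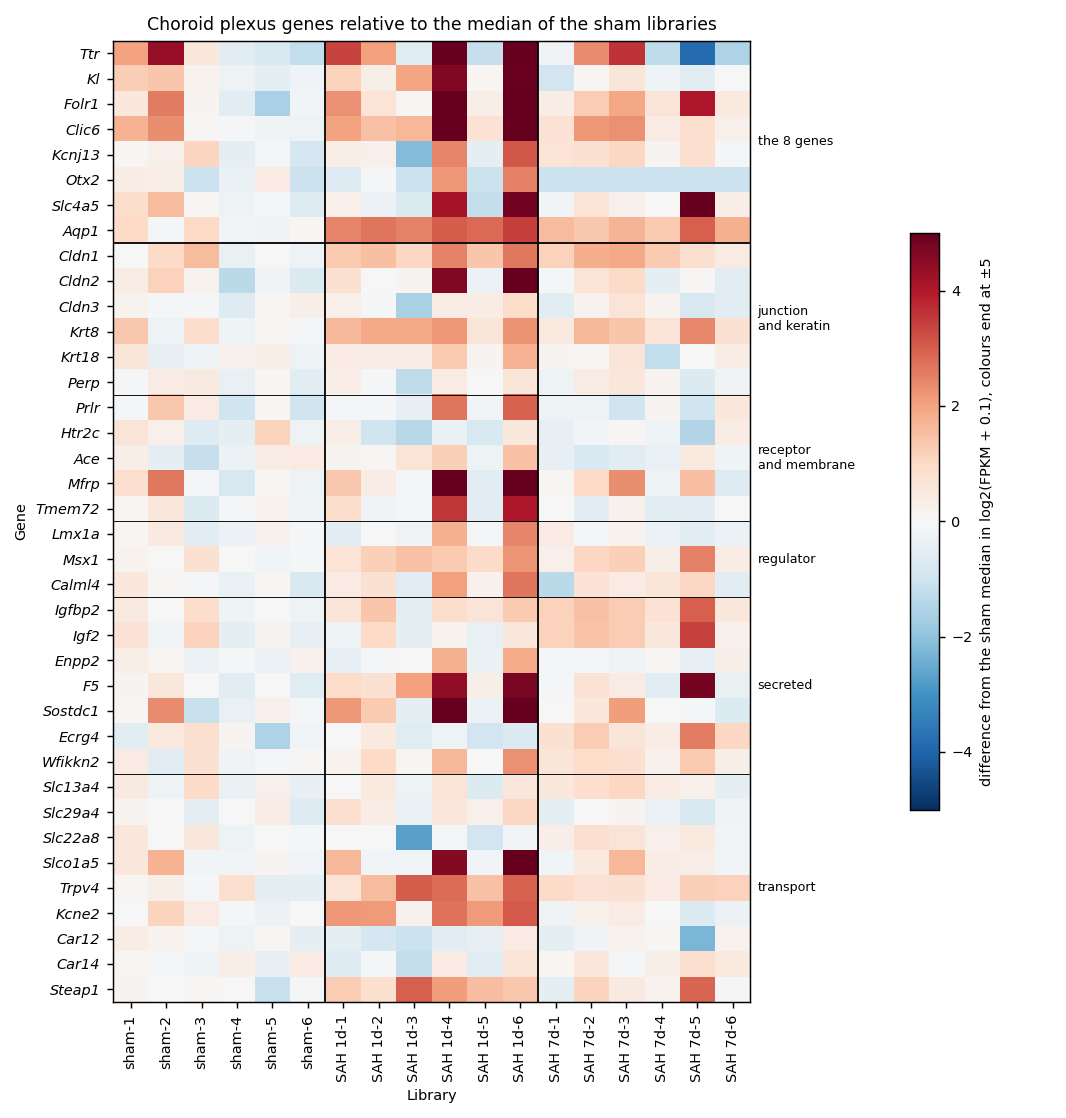
Level of the 8 genes (top block) and of 30 other choroid plexus genes by role in each library, as the difference from the median of the sham libraries in log2(FPKM + 0.1), where red is higher and blue lower and colours end at ±5. SAH 1d-4 and SAH 1d-6 are the reddest columns in the top block. In SAH 7d-5, Slc4a5, Folr1, Aqp1, F5, Igf2, Igfbp2 and Msx1 are among the red genes, and Ttr is blue.

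At SAH 7d none of the 27 differed from sham in edgeR, beside 0% of all tested genes. At an unadjusted p under 0.05 there were 9 of the 27 and 2842 of all 18444 tested genes. DESeq2 gave 1 of the 27, beside 2.49% of all genes. Between SAH 7d and SAH 1d, Kcne2 was the only one of the 27 that differed, lower at SAH 7d by a log2 fold change of −2.33 (SE 0.38, adjusted p = 0.0117), beside 1.08% of all tested genes that were lower and 0.282% that were higher. Its level was 0.966 to 2.79 FPKM in sham, 1.43 to 10.9 FPKM at SAH 1d and 0.727 to 1.67 FPKM at SAH 7d. Without SAH 1d-4 and SAH 1d-6 the difference was −1.88 (SE 0.37) and did not pass (adjusted p = 0.0668). Without SAH 7d-5, 1 of the 27 was higher (Ecrg4, adjusted p = 0.0211) and 4 were lower (Kcne2, F5, Trpv4 and Ace, adjusted p of 0.00789, 0.0395, 0.0397 and 0.0402), beside 3.18% and 5.19% of all tested genes.

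Genes of other tissue near the cortex were read beside these results. The ependyma genes, 5 of 6 listed, had a summed level of 3.26 to 8.41 FPKM in sham, 5.15 to 14.6 FPKM at SAH 1d and 6.03 to 12.1 FPKM at SAH 7d, with 14.6 FPKM in SAH 1d-4 and 13.2 FPKM in SAH 1d-6. The highest of them was Tekt1. None of the 5 passed the test of edgeR in any of the 3 comparisons, with 2, 1 and 0 at an unadjusted p under 0.05 for SAH 1d and SAH 7d against sham and for SAH 7d against SAH 1d. Of all 18444 tested genes, 7148, 2842 and 2713 were at an unadjusted p under 0.05 in these comparisons. The fibroblast genes of the meninges stood at 62.9 FPKM in SAH 1d-4 and 65.6 FPKM in SAH 1d-6, inside the range of the SAH 1d group (51.0 to 99.6 FPKM). The genes of cortical neurons summed to 421 and 443 FPKM in the pair, inside the 212 to 472 FPKM of SAH 1d. For the 6 genes of the striatum, led by Ppp1r1b, the pair was at 95.3 and 231 FPKM within 62.5 to 322 FPKM at SAH 1d, and for the 5 of the thalamus, led by Prkcd, at 30.3 and 34.7 FPKM within 28.4 to 50.7 FPKM. At SAH 1d, 2 of the 6 fibroblast genes and 1 of the 5 thalamic genes were higher than in sham (edgeR, adjusted p under 0.05), beside 14.9% of all tested genes, and 3 of the 4 neuron genes and 2 of the 6 striatal genes were lower, beside 10.5%. Without the pair these counts were 1 and 1, beside 13.1%, and 2 and 1, beside 7.52%. The red cell genes, led by Hba-a1, summed to 113 and 88.0 FPKM in the pair, and edgeR passed none of the 5 in any comparison, with 0 at an unadjusted p under 0.05 in each. In none of these 6 lists were SAH 1d-4 and SAH 1d-6 the 2 highest libraries for a gene, beside 1.12% of all tested genes for which they were. The part of these tissues in the levels of the 8 genes was not tested.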

How the data were processed

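RNA from the cortex of 18 rats was sequenced, with 6 libraries in each group. The authors trimmed the reads, aligned them to Rnor_6.0 and deposited raw counts, 1 whole number for each gene and library. The submitters' processing notes name fastp, HISAT2, DESeq2 1.16.1 and the mouse build mm9, whereas the table holds rat gene identifiers. The FPKM values were deposited as well, scaled by the authors for the length of the transcript and the mapped reads. For the counting program and the strand setting, the sources used here give nothing, and overlapping genes may share reads. Replicates were not pooled. Libraries were grouped by their labels, which equal the column names. Their titles differ for SAH libraries. Total counts have a median of 30.7 in units of 1e+06. The p-values take into account the spread between rats together with counting error.

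The 8 genes, the lists and the alternatives were chosen with earlier results of these data known. Genes were kept by filterByExpr over all 18 libraries (18444 of 30735) and tested with the quasi-likelihood test of edgeR 4.0.16 (TMM, two-sided, Benjamini-Hochberg over all genes, 12 libraries a fit). A DEG needed an adjusted p under 0.05 and a fold change of 2 or more in size. A gene of the other lists was called at an adjusted p under 0.05. The 8 genes entered that fit with all others, and their calls are given as counts only. Log2 CPM used a prior count of 2. Named beside the 8 were up to 10 called choroid plexus genes by size of change, the highest gene of each role or list by mean FPKM, and the 8 genes nearest in profile. Ecrg4, Igf2, Car14, Ace and the genes of the meninges other than Col3a1 were named after their values were seen. Of the lists, Foxj1 and Hbb-b1 had no match, and Slco1a5 and Ecrg4 were matched by older symbols in RefSeq. Alternatives were DESeq2 1.42.0, its size factors, limma 3.58.1 on log2(FPKM + 1) and log2(FPKM + 0.1), no filter, 1 fit of all libraries, the replicate number as a block and leaving out each library. Leaving out SAH 1d-4 and SAH 1d-6 together was chosen after seeing the data. The tests were tried on simulated data with known changes. Gene coordinates of Rnor_6.0 were not used here, and promoters are those of RefSeq for GRCr8.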

Additional observations from a re-analysis of the deposited data

Results flagged for a closer look

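In each group of 6 libraries, the distance of the highest and of the lowest library from its neighbour was divided by the range of the group, on the log2 CPM scale, for each of the 8 genes. In 2 of 23 such groups it was above 0.625, a limit that chance passes in about 1 in 20 groups of genes not picked on their levels. These genes were so picked, so both values are a description. They belong to SAH 7d-5, which was set apart from the other SAH 7d libraries by its high Slc4a5 (14.8 FPKM) and its high Aqp1 (9.31 FPKM). Otx2 at SAH 7d had no counts and no range. A pair of high libraries in 1 group, such as SAH 1d-4 and SAH 1d-6, cannot be picked out by this measure.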

How the results depend on the processing

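The count of DEGs at SAH 1d versus sham (1224) was 782 with all 18 libraries in 1 fit, 496 with limma on log2(FPKM + 1) and 473 with no filter there. Leaving out 1 library gave 1008 to 1326. The median log2 fold change of the 8 genes (3.07) was 1.10 by limma on log2(FPKM + 1), with or without a filter, and −0.048 without SAH 1d-4 and SAH 1d-6, and 2.37 to 3.55 with 1 library left out. Of the 27 other choroid plexus genes, 11 passed, and 6, 7 and 6 by limma with a pseudocount of 1, of 0.1 and with no filter, 7 without the pair, and 6 to 14 with 1 library left out. It was 6 without sham-1, sham-4, sham-5, sham-6 or SAH 1d-4, and 7 without sham-3 or SAH 1d-6. At SAH 7d versus sham, the 0 DEGs became 370 by DESeq2 and 9 with all libraries in 1 fit, 0 to 3 with 1 library left out (3 without SAH 7d-4), and the 0 other choroid plexus genes became 1 by DESeq2, and stayed at 0 with any library left out. The median of the 8 genes, 0.42, ranged from 0.013 to 1.06 with 1 left out. At SAH 7d versus SAH 1d, the 128 DEGs were 388 by DESeq2, 289 in 1 fit, 79 by limma with no filter, 45 without the pair, and 63 (without SAH 7d-2) to 453 (without SAH 7d-5) with 1 library left out, with 74 to 85 without SAH 1d-1, SAH 1d-2, SAH 1d-5, SAH 7d-1, SAH 7d-3 or SAH 7d-6. The median of −2.77 was −0.84 by limma, with or without a filter, −0.19 without the pair, and −3.35 to −1.87 with 1 left out. The 1 other choroid plexus gene became 8 by DESeq2, 4 in 1 fit, 0 without the pair and 1 to 5 with 1 left out, with 2 without SAH 1d-1 and 5 without SAH 7d-5. A pseudocount of 1 makes the log2 change of a low gene smaller, and a fit without some libraries holds fewer of them. What caused each of these shifts was not tested. With the replicate number as a block, the DEGs among the 8 genes at SAH 1d were 1 in place of 3, the other choroid plexus genes passing there were 5, the DEGs of SAH 7d versus SAH 1d were 27 and the other choroid plexus genes there 0. The numbers do not show pairing, since deviations of libraries with the same number correlated at −0.25 to 0.20 and not every library correlated best with its own number. Of the values recomputed for these results, 142 stayed within 1.5 times the count or, for the medians, within 1 SD, and 44 did not. That SD was the spread between libraries of the mean log2 CPM of the 8 genes, SAH 1d-4 and SAH 1d-6 included. For SAH 1d versus sham it was 1.80, so that a median of 1.91 with the block counted as having stayed. Depth limits Otx2, which has 31 counts at most.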
